A study of Mus musculus with 27 samples.

Results

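Collagens and genes of bone and cartilage matrix were measured in mouse olfactory mucosa, the lining of the nose in which the neurons that sense odors sit. The set holds 47 of the 16637 genes named on the array. It comprises 38 collagen genes, taken as all symbols of the form Col, number, a, number, and 9 further genes: Spp1, Mmp13, Dmp1, Phex, Matn1, Matn3, Acan, Ibsp and Sparc. They were sorted by role into 6 bone matrix genes, 10 cartilage matrix genes, 8 fibrillar collagens, 9 basement membrane collagens and 14 other collagens. Where a gene had several probes, which was so for 17 of the 47, the probe with the highest mean represents it.

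All animals were 25-day-old female FVB mice. In 1 cohort a nostril was closed by cautery, and both the occluded and the open side of each animal gave mucosa. The normal group came from other mice, which received a sham cautery on the muzzle. Each of the 3 groups had 3 biological replicates with 3 arrays each, 27 arrays in all. The number in a sample title was read as the biological replicate and the letter as a repeat array, and equal numbers on the occluded and open side were read as the same mouse, which gives 3 pairs and 6 individuals. The labels do not say what the repeat arrays are or whether a replicate is 1 animal, so p-values measure the spread between these samples.

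Bone matrix is laid down by osteoblasts as fibrils of type I collagen that are then mineralized, and its non-collagenous proteins help to control where mineral forms. Cartilage matrix is built by chondrocytes from type II collagen fibrils with types IX and XI, the proteoglycan aggrecan and matrilins, while type X collagen marks chondrocytes that have enlarged before the cartilage is replaced by bone. Basement membranes are thin sheets under epithelia and around vessels, nerves and muscle, and their network is made of type IV collagen chains. The olfactory mucosa lies on thin turbinate bones and on the nasal septum, part of which is cartilage, so dissected mucosa can carry matrix-forming cells along with the epithelium.

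To show the sequence context of the genes that the results turn on, the 250 bases before the RefSeq start of 5 of them are given here on the GRCm38.p6 assembly, 5′ to 3′ on the strand of the gene. Matn1 and Col10a1 are cartilage genes that stood far apart in 1 normal replicate, Mmp13 and Ibsp are bone genes whose side difference changed sign between mice, and Col6a2 is the gene that passed the test between the sides. Capitals mark matches, on either strand, to 5 motifs, whose letters are spelled out after the sequences. The windows are chr4:130944135-130944384 (plus strand) for Matn1, chr10:34389731-34389980 (plus strand) for Col10a1, chr9:7272264-7272513 (plus strand) for Mmp13, chr5:104299037-104299286 (plus strand) for Ibsp and chr10:76623631-76623880 (minus strand) for Col6a2.
Matn1: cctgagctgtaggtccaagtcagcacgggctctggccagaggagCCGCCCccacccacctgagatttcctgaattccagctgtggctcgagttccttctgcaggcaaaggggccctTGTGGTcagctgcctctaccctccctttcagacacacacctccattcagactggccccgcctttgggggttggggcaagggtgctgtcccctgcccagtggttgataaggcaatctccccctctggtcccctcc
Col10a1: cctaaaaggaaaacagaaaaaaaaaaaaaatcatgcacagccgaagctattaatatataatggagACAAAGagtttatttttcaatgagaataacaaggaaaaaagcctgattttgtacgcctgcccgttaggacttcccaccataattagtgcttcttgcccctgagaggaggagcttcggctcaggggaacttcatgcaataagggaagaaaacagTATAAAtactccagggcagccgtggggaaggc
Mmp13: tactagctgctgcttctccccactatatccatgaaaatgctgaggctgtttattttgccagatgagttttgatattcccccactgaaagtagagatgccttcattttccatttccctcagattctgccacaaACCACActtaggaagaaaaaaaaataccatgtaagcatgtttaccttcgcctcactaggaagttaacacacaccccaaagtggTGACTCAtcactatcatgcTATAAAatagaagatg
Ibsp: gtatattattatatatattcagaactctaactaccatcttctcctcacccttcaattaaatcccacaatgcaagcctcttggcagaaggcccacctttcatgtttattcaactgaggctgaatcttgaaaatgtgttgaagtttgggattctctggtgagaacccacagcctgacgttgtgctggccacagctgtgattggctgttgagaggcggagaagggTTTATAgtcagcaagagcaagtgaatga
Col6a2: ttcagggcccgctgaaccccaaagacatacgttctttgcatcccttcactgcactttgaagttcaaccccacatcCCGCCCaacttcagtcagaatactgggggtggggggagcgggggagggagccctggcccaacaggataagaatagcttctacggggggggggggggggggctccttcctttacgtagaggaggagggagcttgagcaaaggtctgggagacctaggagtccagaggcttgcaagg

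A RefSeq promoter window was matched for 39 of the 47 genes. Members are counted as genes, and a gene counts if any of its windows held the motif. The percentages over all promoters are shares of single windows, so the units differ. The TATA box (TATAAA) was found for 3 of 6 bone matrix genes (Ibsp, Mmp13 and Spp1), 2 of 8 cartilage, 1 of 6 fibrillar, 0 of 8 basement membrane and 2 of 11 other collagen genes. It was in 12.4% of all 32851 promoter windows of the same length. In the printed windows it begins 28 bases before the start in Ibsp, 16 in Mmp13 and 32 in Col10a1. The RUNX core (ACCACA) is named for the factor family that includes the osteoblast regulator Runx2. It was found for 3 of 6 bone (Dmp1, Mmp13 and Spp1), 1 of 8 cartilage, 0 of 6 fibrillar, 1 of 8 basement membrane and 2 of 11 other collagen genes, and in 14% of all windows. The AP-1 motif (TGAGTCA) was found for Mmp13 alone among the members and in 4.46% of all windows. The SOX core (ACAAAG) was in 16.5% of all windows, and was found for 2 of 6 bone (Phex and Spp1), 1 of 8 cartilage (Col10a1), 1 of 6 fibrillar, 0 of 8 basement membrane and 1 of 11 other collagen genes. The GC box (CCGCCC) was found for 0 of 6 bone, 6 of 8 cartilage, 4 of 6 fibrillar, 5 of 8 basement membrane and 6 of 11 other collagen genes, and in 32.7% of all windows. None of these motifs overlapped another in the printed windows, and a match describes letters in a window, not a binding site. By start position, Col4a1 and Col4a2 lie 21 bases apart on chromosome 8, and Dmp1 lies 96670 bases from Ibsp and 232494 bases from Spp1 on chromosome 5.

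Array medians of intensity ran from 123 to 274. The noise limit, set for each array at 3 times the root mean square of all negative values, lay between 11.6 and 24.1, and 8.57% to 19.8% of the 29922 probes were below it. The limit of 24.1 and the share of 19.8% were both on array c of normal replicate 2. Array a of the same replicate had the share of 8.57% and the highest median. The labelled tissue was checked with olfactory neuron markers: Omp, the olfactory marker protein, was saturated on 26 of 27 arrays, and 0 of 7 measured markers were below noise on all arrays. Levels are given as log2 of the quantile-normalized intensity, averaged over the 3 arrays of a replicate. A level is compared only within a probe, since probes differ in how brightly they bind.

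Normal replicate 2 stood apart from the other 8 replicates in cartilage genes, and the counts and medians of the comparisons with the normal group are therefore given with and without it. Matn1, which encodes the cartilage matrilin-1 that bridges collagen and proteoglycan, was at 4.13 in normal replicate 1, 11.79 in normal replicate 2 and 3.38 in normal replicate 3. It was at 4.01, 4.01 and 3.62 on the occluded side and at 2.58, 2.19 and 2.89 on the open side, in the order of replicates 1, 2 and 3. Normal replicate 2 thus exceeded the highest other replicate by 7.66 on the log2 scale, the widest such gap of all 29922 probes, while the other 8 values lay near the noise limit. On its 3 arrays the deposited intensity was 4412.76, 3544.69 and 4021.96, against 2.98 to 18.7 on the other 6 normal arrays, so the repeat arrays carried the same difference.

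Col2a1, the main fibril collagen of cartilage, showed the same replicate standing out. It was at 8.58, 8.98 and 8.50 on the occluded side, 8.56, 8.03 and 9.41 on the open side, and 8.53, 13.33 and 9.23 in the normal replicates. Normal replicate 2 exceeded the highest other value by 3.92, or 15.1-fold, and the other 8 values of the 3 groups overlapped. A second Col2a1 probe behaved alike, with 11.43 in normal replicate 2 and 8.28 as the highest of the others. The third probe did not: it read 5.06 in normal replicate 2 and between 5.02 and 6.34 elsewhere.

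Acan, which encodes aggrecan, was at 8.10, 7.27 and 7.20 on the occluded side, 7.51, 7.17 and 7.74 on the open side, and 7.56, 10.67 and 7.53 in the normal replicates. Col10a1, the collagen of enlarged chondrocytes, was at 4.67, 5.49 and 4.86 on the occluded side, 5.20, 5.29 and 6.63 on the open side, and 5.01, 9.36 and 5.88 in the normal replicates. In both genes normal replicate 2 was the highest of 9, by 2.56 for Acan and 2.73 for Col10a1, and the remaining values overlapped across groups. Col9a3, a chain of the type IX collagen that coats type II fibrils, spread widely in every group: 3.23, 6.98 and 6.40 occluded, 5.86, 7.18 and 7.48 open, and 4.94, 8.77 and 7.71 normal. Its lowest values all came from the samples numbered 1, in each of the 3 groups.

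The other cartilage genes differed less. Col9a1 was at 9.06, 9.92 and 9.84 occluded, 9.73, 10.08 and 10.13 open, and 9.62, 11.10 and 10.003 normal. Col9a2 was at 8.78, 9.23 and 9.24 occluded, 9.05, 9.14 and 9.38 open, and 9.47, 10.27 and 9.40 normal. For both type IX chains normal replicate 2 was again the highest, and for Col9a2 all 3 normal replicates lay above all 6 values of the operated mice. Col11a1, a chain of the type XI collagen inside cartilage fibrils, was at 8.84, 7.99 and 7.88 occluded, 8.45, 8.36 and 8.44 open, and 8.66, 8.73 and 8.89 normal. Col11a2, its partner chain, was at 9.22, 8.35 and 8.61 occluded, 9.02, 8.65 and 8.85 open, and 9.19, 9.27 and 9.04 normal. In these type XI chains normal replicate 2 did not stand apart, and the normal replicates lay above the open side but overlapped the occluded side. Matn3, another matrilin, was below noise on 8 of 9 occluded, 8 of 9 open and 6 of 9 normal arrays, with replicate values from 0.52 to 3.77.

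**Figure D1:**
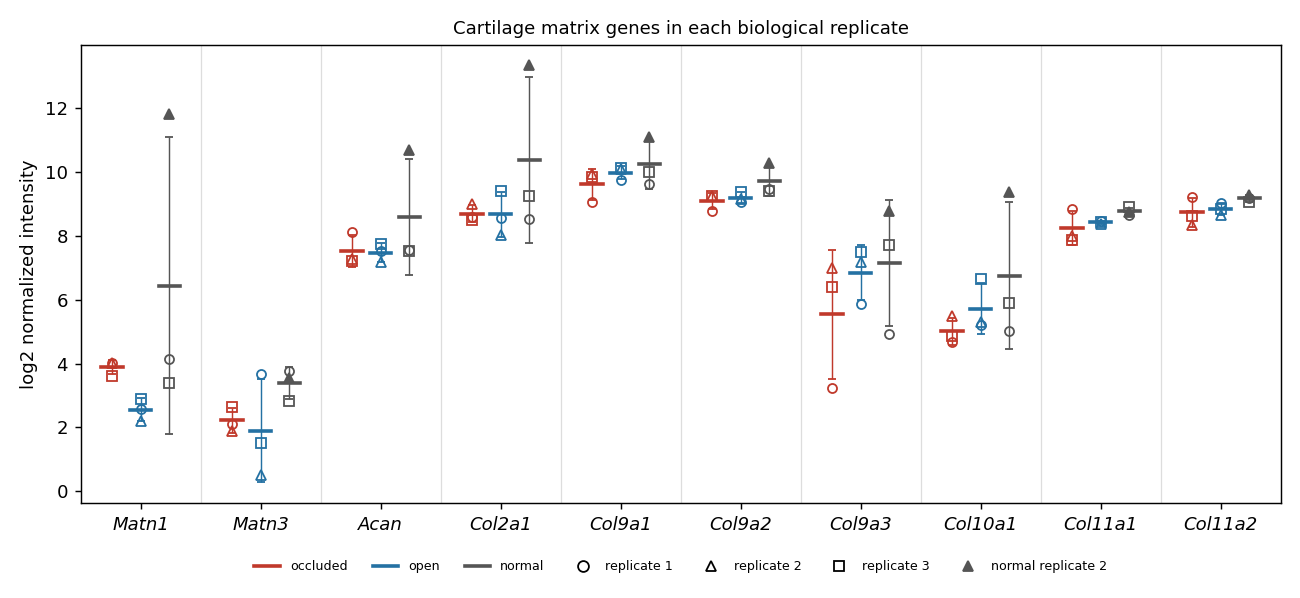
Log2 normalized intensity (y axis) of the 10 cartilage matrix genes in each replicate of the occluded, open and normal groups, with horizontal bars at the group mean and error bars of 1 SD (n = 3). Normal replicate 2, drawn as a filled triangle, lies above all other replicates in 8 of the 10 genes, reaching 11.79 for Matn1 and 13.33 for Col2a1.

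Summed over the 10 cartilage genes, the linear normalized intensity was 21020 in normal replicate 2 and 2742 to 3773 in the other 8 replicates. Normal replicate 2 was the highest of 9 for 8 of 10 cartilage, 7 of 8 fibrillar, 5 of 6 bone and 4 of 14 other genes, and for 1 of 9 basement membrane collagens. The share of all probes that were highest in this replicate was not computed. Across the array it exceeded all others by more than 1 on the log2 scale at 42 probes (0.14%), and the other replicates did so at 5 to 106 probes each. Of the 47 members, 5 (Matn1, Acan, Col2a1, Col9a3 and Col10a1) were among the genes that stood out so. Among the 20 probes with the widest gap in normal replicate 2, 5 belonged to members and 5 were unnamed. The named rest, picked out after their values were seen, included the cartilage genes Ucma (gap 7.21), Cytl1 (5.94), Snorc (3.87), Hapln1 (2.55) and Comp (1.61).

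Of the 10 measured chondrocyte markers outside the set, 3 were highest in normal replicate 2. They were Comp and Hapln1, named above, and Cnmd (gap 1.38), which was below noise on 22 of 27 arrays. The summed intensity of all 10 was 14940 in normal replicate 2 against 11070 to 15520 elsewhere. That sum is carried mostly by the 2 brightest probes, Sox9 and Matn4, and says little about the dimmer genes. Sox9, the main transcription factor of chondrocytes, was at 12.40 there and between 12.13 and 12.60 in the others. Among markers of other cell types, normal replicate 2 was the highest for 2 of 7 osteoblast, 1 of 9 osteoclast, 5 of 9 fibroblast and 2 of 7 endothelial genes. The counts were 0 of 8 for macrophage, 0 of 9 for skeletal muscle, 1 of 7 for sustentacular and gland, and 0 of 7 for olfactory neuron genes, which include the saturated Omp. In bulk tissue, more cells of a type and more RNA per cell cannot be told apart, and how much tissue of each kind was dissected was not tested.

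All 6 bone matrix probes were above noise on all 27 arrays. Spp1, which encodes osteopontin, was at 15.47, 15.16 and 15.71 on the occluded side, 15.30, 15.61 and 15.91 on the open side, and 15.26, 15.96 and 15.73 in the normal group. The 3 groups overlapped, and the highest values are lower limits because the probe was saturated on 1 occluded, 2 open and 2 normal arrays. Mmp13, the collagenase made by osteoblasts and enlarged chondrocytes, was at 15.10, 14.08 and 14.71 occluded, 14.41, 14.59 and 14.82 open, and 14.74, 15.27 and 14.80 normal. Its occluded replicates held both the second-highest and the lowest of the 9 values.

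Ibsp, which encodes bone sialoprotein, was at 14.00, 12.69 and 13.80 occluded, 13.04, 13.58 and 13.68 open, and 12.85, 13.82 and 13.55 normal. Its occluded side spanned the whole range of the other groups, and the SD there was 0.71 against 0.35 on the open side (n = 3 each). Sparc, which encodes osteonectin, was at 12.56, 12.69 and 13.49 occluded, 12.59, 13.61 and 13.65 open, and 12.15, 14.27 and 13.20 normal. The normal group alone held its lowest and its highest value.

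Dmp1 and Phex are genes of osteocytes and mature osteoblasts: Dmp1 encodes an acidic phosphoprotein of the matrix around these cells, and Phex a membrane peptidase that restrains the phosphate-wasting hormone Fgf23. Dmp1 was at 6.07, 6.07 and 5.74 occluded, 5.74, 6.57 and 7.001 open, and 6.26, 7.14 and 6.80 normal. Phex was at 10.98, 10.40 and 10.66 occluded, 10.84, 10.93 and 11.18 open, and 11.02, 11.57 and 11.34 normal. In both genes all 3 occluded values lay below all 3 normal values, and the open side overlapped both.

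The fibrillar collagens are those of bone and of connective tissue. Col1a1, 1 of the chains of type I collagen, was at 14.10, 13.07 and 13.83 occluded, 13.56, 13.89 and 14.33 open, and 13.36, 14.61 and 14.28 normal. Col1a2, the other chain, was at 13.68, 13.94 and 14.68 occluded, 13.47, 14.75 and 14.81 open, and 13.42, 15.65 and 14.92 normal. Col3a1, the type III collagen of soft connective tissue, was at 13.96, 14.11 and 14.52 occluded, 13.92, 14.56 and 14.68 open, and 13.69, 15.20 and 14.62 normal. At these probes the groups overlapped in all 3 genes, normal replicate 1 was below the other normal replicates, and normal replicate 2 was the highest of 9. A second, dimmer Col3a1 probe was at 5.955, 5.465 and 5.61 occluded, 6.081, 5.774 and 6.005 open, and 6.151, 6.445 and 6.324 normal. There the normal replicates lay above all values of the operated mice, but the occluded minus normal difference of -0.63 ± 0.19 (SE) did not pass.

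**Figure D2:**
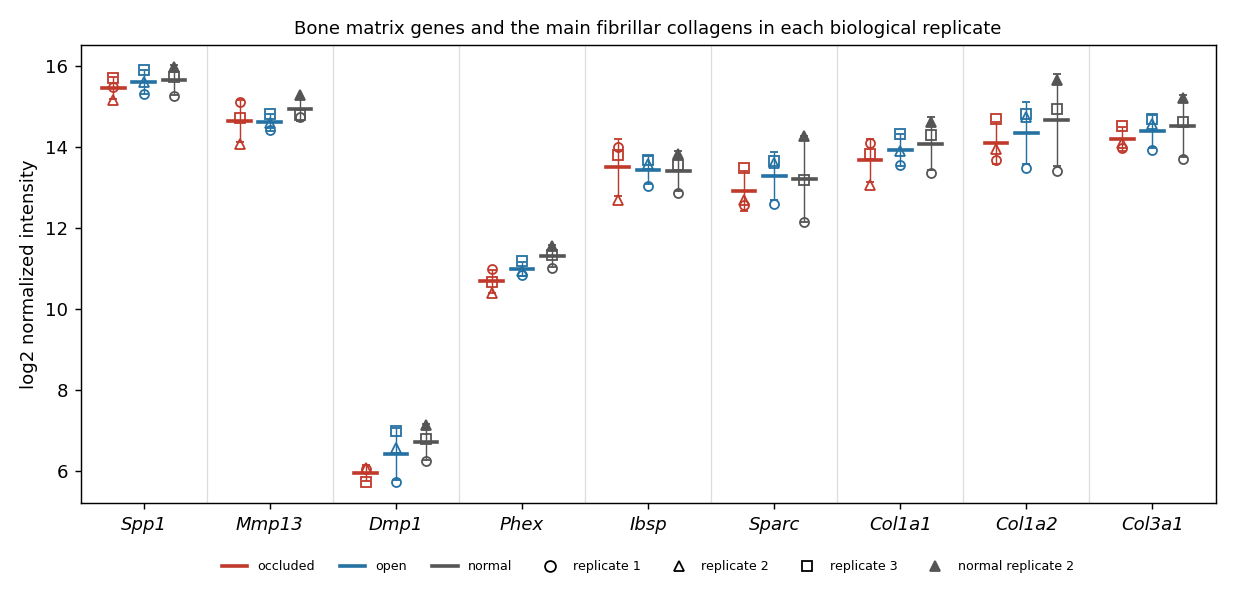
Log2 normalized intensity (y axis) of the 6 bone matrix genes and of Col1a1, Col1a2 and Col3a1 in each replicate of the occluded, open and normal groups, with bars at the group mean and error bars of 1 SD (n = 3). The groups overlap throughout except for occluded against normal in Dmp1 and Phex, and the occluded replicates of Mmp13 and Ibsp spread from 14.08 to 15.10 and from 12.69 to 14.00.

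The spread between replicates exceeded that between repeat arrays of a replicate for all 6 bone genes. Their median SD was 0.17 between arrays and 0.41 between replicates, and the same medians were 0.25 and 1.04 for cartilage genes, 0.22 and 0.52 for fibrillar collagens, 0.27 and 0.31 for basement membrane collagens and 0.22 and 0.39 for the other collagens. For 6 of the 9 basement membrane collagens the spread between replicates was the larger, as for Col4a1 (0.12 between arrays and 0.31 between replicates) and Col4a2 (0.10 and 0.30), while for Col4a3, at low signal, the SD between arrays was 0.67.

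Of the basement membrane collagens, the paired chains Col4a1 and Col4a2 form the network found in nearly all basement membranes. Col4a1 was at 10.93, 10.61 and 10.78 occluded, 11.04, 10.77 and 11.38 open, and 10.55, 11.28 and 11.24 normal. Col4a2 was at 13.14, 12.56 and 12.68 occluded, 13.34, 12.85 and 13.06 open, and 12.56, 13.20 and 13.05 normal. The occluded side had the lower value in each of 3 pairs as read from the titles, with pair differences of -0.12, -0.16 and -0.59 for Col4a1 and -0.21, -0.29 and -0.37 for Col4a2. For Col4a1 this rests on the pairing of numbers 2 and 3, since occluded replicate 3 (10.785) was above open replicate 2 (10.774). The groups overlapped, and the mean differences of -0.29 ± 0.20 (SE) and -0.29 ± 0.19 (SE) did not pass (limma adjusted p = 0.96 and 0.95).

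The chains Col4a3 to Col4a6 serve specialized basement membranes such as that of the kidney filter. Col4a3 lay between 4.50 and 5.51 and Col4a4 between 4.22 and 5.81 over the 9 replicates, each below noise on up to 2 arrays of a group. Col4a5 was the steadiest of the 9 basement membrane genes, between 8.22 and 8.52, and Col4a6 lay between 6.03 and 7.35. Col7a1, the anchoring fibril collagen under stratified epithelia, lay between 8.78 and 9.59, and Col15a1, a collagen of vessel and muscle basement membranes, between 7.56 and 8.25. In each of these 6 genes the 3 groups overlapped.

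Col18a1, the source of endostatin, was the basement membrane gene with the largest differences. It was at 5.22, 6.48 and 5.71 occluded, 6.30, 5.89 and 6.91 open, and 4.94, 6.15 and 4.25 normal. Normal replicate 2 was above 1 of the open values and 2 of the occluded values, while the other 2 normal replicates were below all operated values. The Col18a1 probe was below noise on 2 of the 9 normal arrays.

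**Figure D3:**
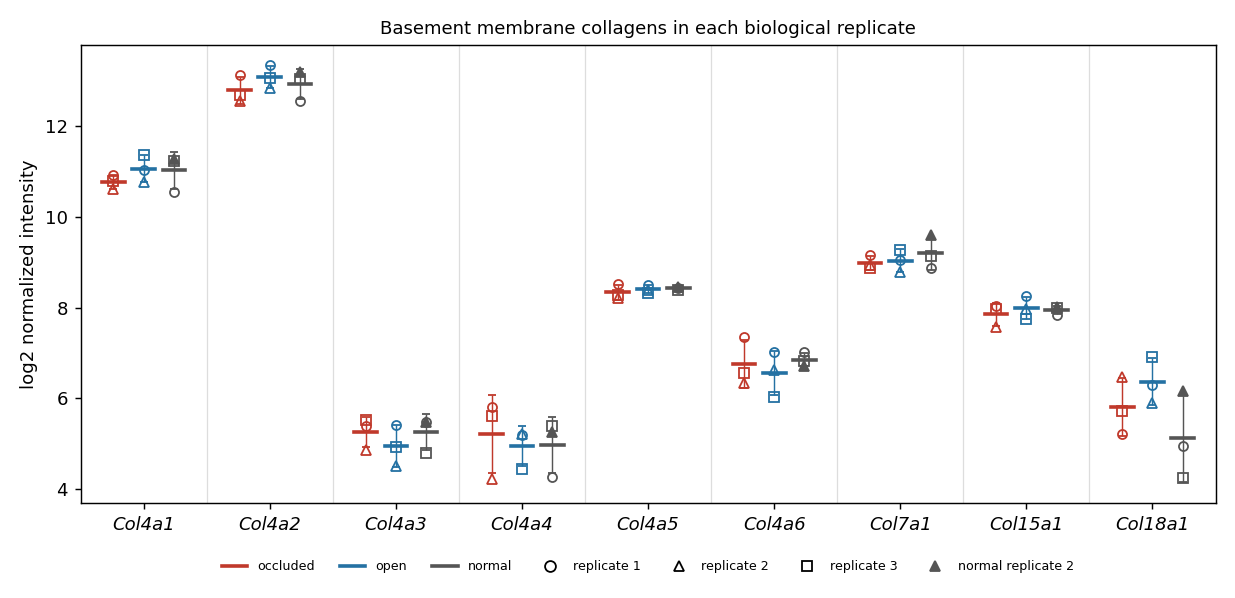
Log2 normalized intensity (y axis) of the 9 basement membrane collagens in each replicate of the occluded, open and normal groups, with bars at the group mean and error bars of 1 SD (n = 3). Normal replicate 2 (filled triangle) is the highest of 9 only for Col7a1, and the groups overlap in every gene.

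Between the occluded and the open side, 1 of the 47 members passed an adjusted p of 0.05 in limma, against 66 of 29922 probes, or 0.221% (0.177% higher and 0.0434% lower). It was Col6a2, which encodes a chain of the beaded type VI collagen that links cells to the surrounding matrix. Col6a2 was at 8.91, 8.14 and 8.43 on the occluded side, 7.42, 7.12 and 7.34 on the open side, and 7.43, 7.47 and 7.76 in the normal group. Every occluded replicate lay above every open and every normal replicate. It rose on the occluded side by 1.20 ± 0.18 (SE) on the log2 scale, with limma's adjusted p = 0.046 and pair differences of 1.49, 1.02 and 1.09. Of 14 alternatives, 10 ended the call, among them the fit with the pair as a fixed block (adjusted p = 0.50) and each of the 3 pairs left out (adjusted p = 1, 0.065 and 0.14 for pairs 1, 2 and 3), although the difference stayed between 0.99 and 1.29.

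Against normal mucosa the occluded side had a Col6a2 difference of 0.94 ± 0.23 (SE), which did not pass (limma adjusted p = 0.64), and without normal replicate 2 it was 0.90. The open side was 0.26 below normal with an SE of 0.23 (limma adjusted p = 1). Col6a3, a partner chain of the same protein, had an occluded minus open difference of -0.39 ± 0.30 (SE), opposite in sign. The 2 other Col6a3 probes gave 0.19 and -0.02, so no probe of Col6a3 showed a difference of that size.

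**Figure D4:**
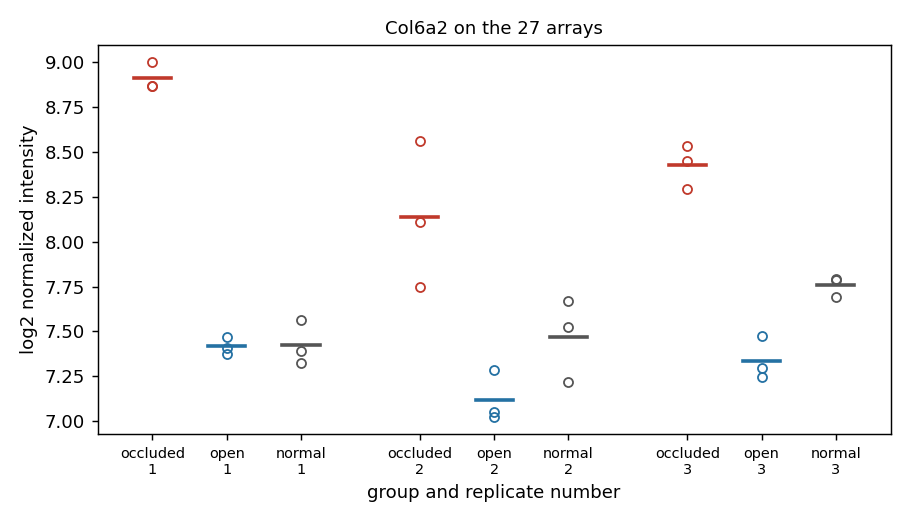
Log2 normalized intensity (y axis) of Col6a2 on each of the 27 arrays, by group and replicate number, with bars at the mean of the 3 arrays of a replicate. The occluded means of 8.91, 8.14 and 8.43 lie above all open and normal means, and the 3 arrays of occluded replicate 2 spread from 7.75 to 8.56.

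Without overlap between the sides, 2 of 47 members were higher on the occluded side, Matn1 and Col6a2, against 3.76% of all probes, and 0 were lower, against 2.94%. Matn1 was below noise on 8 of 9 open and 3 of 9 occluded arrays, so the size of its difference is not given. At an unadjusted p under 0.05 there was Col6a2 alone, against 3.56% of probes higher and 2.63% lower. The members with the next smallest p were Col5a3 at 0.49 ± 0.23 (SE, limma adjusted p = 0.84), Col12a1, Col8a1 at -0.43 ± 0.21 (limma adjusted p = 0.87) and Phex at -0.30 ± 0.19 (limma adjusted p = 0.94). Col12a1 was below noise on all 27 arrays and has no fold.

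Over the set, 33 of 47 differences were below 0 (49.3% of all probes) and 14 above (50.7%), with a median of -0.14, against 0.004 over all probes. The medians were -0.23 for bone matrix, -0.11 for cartilage matrix, -0.24 for fibrillar collagens, -0.07 for basement membrane collagens and -0.13 for other collagens. Beside this, the 6 measured olfactory neuron markers other than the saturated Omp all had a difference above 0, and 0 of them passed, with 4 at an unadjusted p under 0.05 in limma; their part in the differences of the matrix genes was not tested. The 95% intervals of the side difference included 0 for every bone, cartilage, fibrillar and basement membrane gene, although those of the partly saturated Spp1 and of Matn1 and Matn3 cannot be read as sizes. Examples are Mmp13 (-0.52 to 0.58), Ibsp (-0.71 to 0.84) and Col1a1 (-0.996 to 0.47). Each interval pools the spread of all 3 groups, so normal replicate 2 also enters the intervals of the cartilage genes. For Col2a1 the side difference had an SE of 0.85, with SDs of 0.26 occluded, 0.70 open and 2.59 normal (n = 3 each).

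The 3 pairs, which rest on reading equal numbers as 1 mouse, did not move alike. In pair 1, 5 of 6 bone genes and 8 of 8 fibrillar collagens were higher on the occluded side, whereas in pair 2 these counts were 0 of 6 and 1 of 8, and in pair 3 they were 1 of 6 and 1 of 8. Over all probes 52.6%, 51.2% and 50.4% were higher on the occluded side in pairs 1, 2 and 3. Ibsp differed by 0.96, -0.89 and 0.12 in the 3 pairs, Mmp13 by 0.69, -0.50 and -0.11, and Col1a1 by 0.54, -0.82 and -0.50. Basement membrane collagens were split in each pair, with 4, 3 and 4 of 9 higher on the occluded side. Across the set, 3 genes were higher in all 3 pairs (Matn1, Col5a3 and Col6a2) and 8 were lower (Sparc, Col9a1, Col9a3, Col4a1, Col4a2, Col8a1, Col14a1 and Col17a1), against 13.8% and 12.6% of all probes.

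In the comparison of the occluded side with normal mucosa, 0 of 47 members passed, against 2 of all probes (0.00668%). At an unadjusted p under 0.05 limma gave 1 member higher (Col6a2) and 3 lower (Phex, Col9a2 and Col27a1), against 1.62% and 1.25% of all probes. Without normal replicate 2 there were 2 higher (Col18a1 and Col6a2) and 0 lower, with an unadjusted p in limma of 0.097 for Phex, 0.15 for Col9a2 and 0.064 for Col27a1. The share of all probes at an unadjusted p under 0.05 without that replicate was not computed. With all replicates, Phex was lower by 0.62 ± 0.24 (SE), and its interval without adjustment did not reach 0, yet limma's adjusted p was 1. Col27a1, a fibrillar collagen of growth plate cartilage, was at 5.60, 5.57 and 5.58 occluded, 5.38, 5.98 and 6.28 open, and 6.004, 6.78 and 6.55 normal. Its occluded values lay close together and below all normal values, with a difference of -0.86 ± 0.29 (SE, limma adjusted p = 1). Their SD of 0.017 was smaller than the SD of 0.517 between repeat arrays. A second Col27a1 probe was at 6.04, 5.12 and 5.36 occluded and 6.265, 6.95 and 5.935 normal. There the groups overlapped, with a difference of -0.88 ± 0.36 (SE). Dmp1, with -0.77 ± 0.38 (SE), and Col9a2, with -0.63 ± 0.27 (SE), also had an adjusted p of 1 in limma. Without normal replicate 2 these differences were -0.49 for Phex, -0.69 for Col27a1, -0.57 for Dmp1 and -0.35 for Col9a2. Without overlap, 5 members were lower (Dmp1, Phex, Matn3, Col9a2 and Col27a1), against 3.09% of probes, and 1 higher, against 3.57%. Without normal replicate 2 the same 5 were lower without overlap, against 8.98% of probes, and Col18a1, Col6a2 and Col20a1 were higher, against 7.07%.

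The size of several cartilage differences rested on that replicate. All 10 cartilage genes were lower on the occluded side than in normal mucosa, with a median of -1.12, and without normal replicate 2 there were 9 of 10 and a median of -0.37. Col2a1 went from -1.67 to -0.19, Acan from -1.06 to -0.02 and Col10a1 from -1.75 to -0.44. Col9a1 went from -0.64 to -0.21 and Col9a3 from -1.60 to -0.79. The type XI chains hardly moved, Col11a1 from -0.52 to -0.54 and Col11a2 from -0.44 to -0.38, and no size is given for Matn1 and Matn3, which lay at or near noise. The medians moved from -0.30 to -0.09 for bone genes, from -0.30 to -0.01 for fibrillar collagens and from -0.09 to -0.02 for basement membrane collagens. Of the whole set, 38 differences were below 0 (49% of all probes) and 9 above (51%) with it, and 31 and 16 without it. The median of the set was -0.29 with it and -0.06 without it, and over all probes it was 0.006 with it. Neither the signs nor the median of all probes were computed without it, so the shift of the set has no background beside it.

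Between the open side and normal mucosa, which asks whether the ventilated side differed from the mucosa of sham-treated mice, 0 of 47 members passed, as did 0 of all probes (0%). At an unadjusted p under 0.05 limma gave 0 members, against 236 probes higher (0.789%) and 241 lower (0.805%). Without normal replicate 2 there were 2 members, Col18a1 higher and Matn1 lower. Of the set, 32 differences were below 0 (50.9% of all probes) and 15 above (49.1%), and without normal replicate 2 there were 19 below and 28 above. For neither count was the share of all probes without that replicate computed. The values of this comparison share the normal replicates with the comparison above and the open replicates with the first. All 10 cartilage genes were again below normal, with a median of -0.78, which became -0.23 with 7 of 10 below when normal replicate 2 was left out. The medians of bone and fibrillar genes changed sign without it, from -0.17 to 0.01 and from -0.16 to 0.14, as did that of basement membrane collagens, from -0.02 to 0.08. The difference of Matn1 is not given, as most of its open arrays were below noise.

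Without overlap, 5 members were lower on the open side than in normal mucosa (Matn1, Col9a2, Col11a1, Col11a2 and Col6a2), against 2.21% of probes, and 0 were higher, against 2.06%. Without normal replicate 2 the same 5 were lower, against 8.65% of probes, and Col18a1 and Col13a1 were higher, against 6.91%. Col18a1 had a difference of 1.25 ± 0.56 (SE, limma adjusted p = 1) with all replicates and 1.77 without normal replicate 2, where limma's adjusted p was also 1. Its probe was below noise on 2 normal arrays, and the difference ranged from 0.60 to 1.77 over the alternatives, so its size is uncertain. Among the 5 smallest p of this comparison were also Matn3, at or near noise, Col9a2 at -0.52 ± 0.27 (SE) and Col27a1 at -0.56 ± 0.29 (SE), each with an adjusted p of 1 in limma. Without normal replicate 2 these were -0.24 for Col9a2 and -0.39 for Col27a1.

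**Figure D5:**
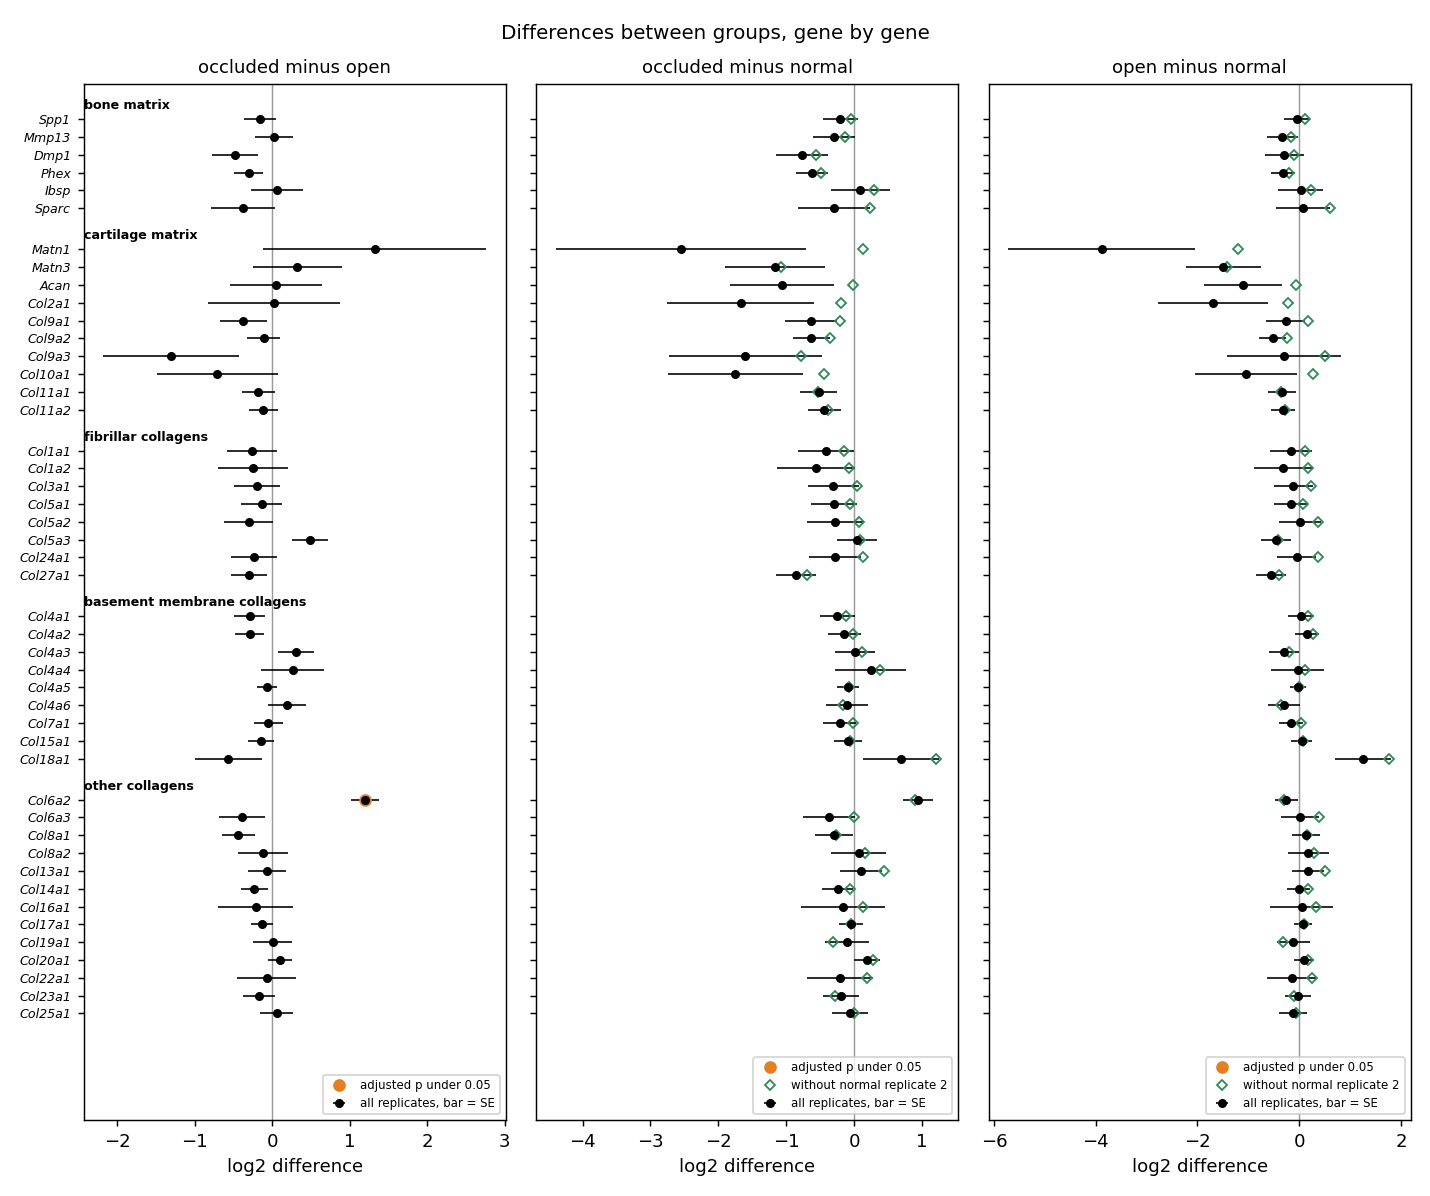
Log2 differences (x axis) between the groups for each gene (y axis), with bars of 1 SE, for occluded minus open, occluded minus normal and open minus normal. The orange point is Col6a2 at 1.20, the gene that passed an adjusted p of 0.05, green diamonds are the differences without normal replicate 2, which move Col2a1 from -1.67 to -0.19 against the occluded side. Matn1 outside normal replicate 2, and Matn3 in all groups, lie at or near noise, so their points have no reliable size, and Col12a1 is left out because it was below noise on all 27 arrays.

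The 14 other collagens, which include network, membrane-spanning and fibril-associated types, were each below noise on at most 1 array of a group, apart from Col12a1. Col8a1, a network collagen of vessels, was at 9.62, 10.23 and 10.53 occluded, 10.63, 10.38 and 10.67 open, and 10.17, 10.47 and 10.63 normal. Occluded replicate 1 was its lowest value, and the sides overlapped. Col5a3, a fibrillar chain that joins type V collagen, was at 9.19, 8.39 and 8.73 occluded, 8.76, 7.71 and 8.37 open, and 8.97, 8.82 and 8.41 normal. It was higher on the occluded side in each pair, by 0.36 to 0.68, with overlapping groups. Col17a1, the hemidesmosome collagen of basal keratinocytes, lay between 8.74 and 9.16, and Col20a1 between 11.73 and 12.28, the 2 narrowest ranges among the other collagens.

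Genes that build, modify or remove collagen were tested in the same way. As 0.221% of all probes passed between the sides, a count of 0 in lists this short says little about them. Of 19 measured collagen processing genes (prolyl and lysyl hydroxylases, chaperones and cross-linking oxidases), 0 passed in limma in any comparison, and the median occluded minus open difference was -0.08. The same count was 0 of 9 for small proteoglycans (median -0.07), 0 of 14 for basement membrane glycoproteins such as laminins and nidogens (median -0.09), and 0 of 14 for matrix proteases and their inhibitors (median 0.02). Mmp14, a membrane-bound collagenase, was at 8.36, 8.58 and 8.84 on the occluded side, 9.79, 10.04 and 10.18 on the open side, and 9.51, 10.49 and 8.30 in the normal group. The sides did not overlap, but its difference of -1.41 ± 0.37 (SE) had an adjusted p of 0.35 in limma.

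Among markers of the cells that make or resorb bone, 0 of 7 osteoblast and osteocyte genes and 1 of 9 osteoclast genes passed between the sides. Over all probes the share was 0.221%. The osteoclast gene was Tnfrsf11a, which encodes RANK, the receptor through which osteoclast precursors are driven to differentiate. Tnfrsf11a was at 6.81, 6.56 and 6.89 on the occluded side, 5.35, 5.06 and 5.88 on the open side, and 6.03, 5.92 and 5.90 in the normal group. It rose on the occluded side by 1.33 ± 0.18 (SE, limma adjusted p = 0.031), above all open and normal replicates. The call was lost in 10 of 14 alternatives, with differences between 0.74 and 1.48 and an adjusted p in limma from 0.0053 to 1, among them each of the 3 pairs left out (adjusted p = 1, 0.069 and 0.063 for pairs 1, 2 and 3). The other 8 osteoclast genes did not pass, and the median of the list was 0.05. In the fibroblast list, 0 of 9 passed; S100a4, at 11.28, 11.16 and 10.95 occluded, 12.26, 12.30 and 12.13 open, and 11.69, 12.39 and 12.24 normal, came closest, with a difference of -1.10 ± 0.17 (SE, limma adjusted p = 0.057).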

How the data were processed

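Total RNA was amplified as amino-allyl RNA and labelled with Cy5, 1 sample per array, per the labels' protocols. The deposited table holds linear probe intensity values for 29922 probes; their scanning, background correction and scaling were not given in the sources used here. Values of 1.45% to 3.93% of an array's probes were at or below 0, and these were set to the lowest positive value (0.912) before log2. Between 36 and 80 probes per array, at or above 99.5% of its highest value, were called saturated. After quantile normalization, the 3 arrays of a replicate were averaged. In R 4.3.3, limma 3.58.1 (statmod 1.5.0; data.table at 1.17.8) modelled the 3 groups over all probes taking the individual as random block (consensus correlation 0.389), two-sided, with Benjamini-Hochberg adjustment over all probes at 0.05. The test was also run on simulated data with equal spread in all groups and the assumed pairing. Such a run cannot speak to an outlying replicate or to a wrong pairing. Deviations from group means correlated at 0.516, -0.00436 and 0.142 within pairs 1, 2 and 3, but at 0.386 for occluded 2 with open 3 and 0.265 for occluded 3 with open 2, so the values do not settle the pairing of numbers 2 and 3. The shared individuals come from the design text, the match of numbers is a reading of the titles.

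Annotation of the array gave gene names. The genes named with values are all bone, cartilage and basement membrane members, Col1a1, Col1a2 and Col3a1, the 5 members with the smallest p in each comparison, and the member with the smallest p of a context list. Others, such as Col6a3, Col13a1, Col17a1, Col20a1 and Sox9, were named after their values were seen. The members, lists and tests were chosen with earlier results of these data known. Promoter windows are those of RefSeq on GRCm38.p6. Alternatives covered the normalization, the floor and offset, the block, averaging of arrays, dim probes, several probes of a gene, the groups in the fit and each replicate left out.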

Additional observations from a re-analysis of the deposited data

How the results depend on the processing

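Of 14 alternatives for occluded against open, 10 gave 0 members past the threshold in place of 1: no normalization between arrays, median centring, no replicate block, the title number as a fixed block, the median of the 3 arrays, only the 2 groups compared, the pair as a fixed block, and each of the 3 pairs left out (0 to 0). The cause was not tested. Fits on only the 2 groups, with the pair as a fixed block or with a pair left out also used fewer replicates. The Col6a2 difference was 1.20 with the replicate block as a fixed pair effect (limma adjusted p = 0.50), 1.20 with no block (0.26) and 1.20 with the number as block (0.30), and its adjusted p ranged from 0.0088 to 1 over all 14. The call stayed with a floor of 16 (0.039), an offset of 50 (0.016), after removal of the dimmest 30% of probes (0.0088) and when a gene's probes were averaged (0.046). The count over all probes ranged from 0 to 91.

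In both comparisons with normal mucosa, 0 members passed in all 16 alternatives, blocked fits included. Members at an unadjusted p under 0.05 numbered 1 to 11 for occluded against normal, 11 without normal replicate 1 and 8 without pair 1, and 0 to 3 for open against normal. The share of all probes at that threshold was not computed for these alternatives, so the counts cannot be read as particular to the set. The cartilage median stayed below 0 in every alternative of all 3 comparisons, from -1.38 to -0.37 for occluded against normal. For open against normal, the median of basement membrane collagens was above 0 in 8 of 16 alternatives. The number of arrays and mice limits the precision, and for dim probes such as Matn3 so does the noise.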
